A study of Mus musculus with 12 samples.

Results

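The translation initiation factors (symbols beginning with Eif) and elongation factors (symbols beginning with Eef) were followed in tumour-associated macrophages (TAMs) of mice given picrotoxin or its solvent. Of the 24781 gene symbols counted, 60 had such a symbol once the kinases and binding proteins of these factors (Eif2ak, Eif4ebp and Eef2k genes) were set aside. The 57 with a mean of at least 1 molecule per library were kept, 47 of them Eif genes and 10 Eef genes. The other 3 (Eef1a2, Eef1akmt4-ece2 and Eif4e1b) had no molecule in any library.

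Wild-type animals were inoculated with MC38, a colon adenocarcinoma line of the mouse, and were injected with DMSO or with picrotoxin, which blocks the GABA-A receptor, a chloride channel opened by GABA. Each library was made from 100 CD45+CD11b+F4/80high cells taken from a day 7 tumour by flow cytometry. There were 6 DMSO and 6 picrotoxin libraries, both from wild-type mice, so that the agent was the only labelled difference. A library stood for a mouse according to the study's methods, whereas the legend for this comparison of TAMs counted fewer mice than libraries. Which libraries would share a mouse is not in the labels. Libraries were treated as independent, which makes p-values and standard errors too small if some share a mouse.

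Protein synthesis begins when eIF2, loaded with GTP and the initiator methionyl-tRNA, joins the small ribosomal subunit with eIF1, eIF1A, eIF3 and eIF5, and the eIF4 factors bring in the capped mRNA. At the start codon eIF2 hydrolyses its GTP and leaves the ribosome bound to GDP, and eIF2B exchanges this GDP for GTP, the step that stress kinases block by phosphorylating the alpha subunit of eIF2. During elongation eEF1A delivers aminoacyl-tRNAs and is recharged by eEF1B, while eEF2 moves the ribosome along the mRNA. In macrophages, control of these steps is known to help set how quickly inflammatory proteins are made.

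Library totals were between 201697 and 309617 molecules, a molecule being a distinct molecular barcode, so that PCR copies were counted once. All 13 listed macrophage markers were expressed, at 0.956% to 1.35% of molecules with DMSO and 1.16% to 1.34% with picrotoxin, and 3 of the 13 had a higher level with picrotoxin at an unadjusted p under 0.05. The 15 fibroblast and matrix markers took 0.00911% to 0.315% of molecules with DMSO and 0.00660% to 0.0313% with picrotoxin, with 873 molecules in DMSO 5 and 244 in DMSO 3, and 9 of the 12 that could be tested were lower with picrotoxin. The 10 T and NK cell markers had 23 molecules in picrotoxin 6 and 0 to 2 in each other library, and the 6 epithelial markers had 8 to 21 molecules per library, and the 1 gene of each list that could be tested was higher with picrotoxin. Cd3e, Cd8a and Epcam had no molecule in any library. The ribosomal RNA transcript Rn45s took 10.1% ± 2.42 of molecules with DMSO and 13.0% ± 1.32 with picrotoxin (SD, n = 6 each). The part of these differences in the results was not tested except where a value without the libraries or transcript is given. In bulk samples, fewer cells of a type and less RNA per cell cannot be told apart.

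A minority of the factors were lower with picrotoxin before adjustment for the number of genes tested, and none after it. All 57 were tested, each against a threshold of an unadjusted p under 0.05 in the quasi-likelihood test of edgeR, and 7 had a lower level with picrotoxin and 1 a higher level. These were Eif2s2, Eif3h, Eif3d, Eif3k, Eif4a1, Eef1a1 and Eefsec on the lower side and Eif2s1 on the higher side. The 7 were 12.3% of the factors, beside 4.05% of the 9580 genes tested, and the 1 was 1.75% beside 3.67%. No factor had a Benjamini-Hochberg adjusted p under 0.05 over all genes tested, in edgeR or in DESeq2, as was the case for all but 5 genes in edgeR (0.0522%). The number of factors past the unadjusted threshold, 8 in all beside 7.72% of all genes, was 5 when DMSO 3, picrotoxin 2, picrotoxin 4, picrotoxin 5 or picrotoxin 6 was left out, and 5 with DMSO 3 and DMSO 5 both left out. Of all genes, 6.49% to 7.30% passed when 1 of these libraries was left out, and 5.37% with DMSO 3 and DMSO 5 both left out. The 1 higher call was lost with scaling to library totals and with Rn45s removed, where 9 factors passed and all 9 were lower. Over all genes the calls also moved to the lower side. They were 526 lower (5.49%) and 220 higher with library totals, and 449 lower (4.69%) and 290 higher with Rn45s removed.

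The rule of the study was a p under 0.05 before adjustment in the Wald test of DESeq2. It called 6 factors, all lower, where 3.82% of all genes were called, 2.05% lower and 1.77% higher. They were Eif2s2, Eif3h, Eif3d, Eif4a1, Eef1a1 and Eef1g. The call count was 3 without DMSO 5, 3 without picrotoxin 6 and 3 with DMSO 3 and DMSO 5 both left out. Shares of all genes under this rule are not given for these fits, so the lower counts cannot be read as particular to the factors. With edgeR, 6.39%, 6.89% and 5.37% of all genes passed in the same fits in turn, beside 7.72% in the main fit. In 2 of the 57 factors, Eif3h and Eef1a1, the lowest DMSO library was above the highest picrotoxin library, beside 0.188% of all genes that did not overlap in this direction.

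The median log2 fold change of the 57 factors, picrotoxin over DMSO, was −0.07, and 36 of the 57 (63.2%) were below 0. Over all genes tested the median was −0.01 and 50.7% were below 0. Among the 37 factors with a mean of at least 20 molecules the median was −0.11 and 73.0% were below 0, whereas over the 2058 genes at that level the median was 0.03 and 44.6% were below 0. The interval of each factor shows how little the low ones could say (the plot of fold changes by role), since the standard error of the log2 fold change was 0.07 for Eef1a1 and 0.70 for Eif2b3.

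**Figure D1:**
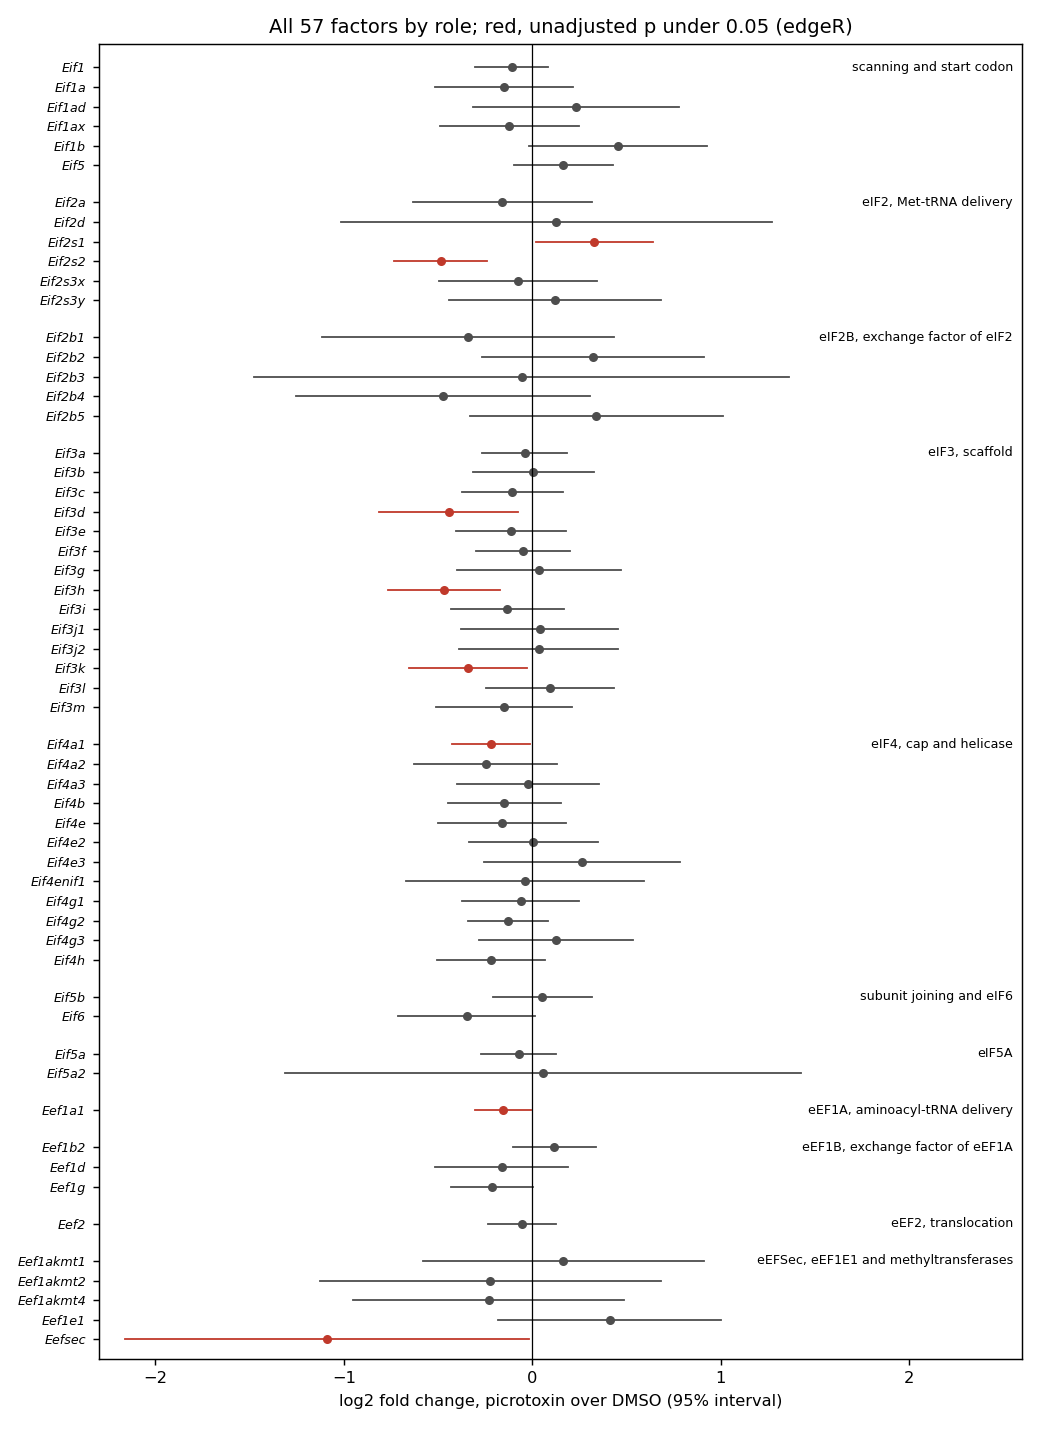
Log2 fold change (picrotoxin over DMSO, horizontal axis) of each of the 57 factors with its 95% interval, grouped by role, 6 libraries per group. The 8 factors drawn in red had an unadjusted p under 0.05 in edgeR, 7 on the lower side and Eif2s1 on the higher side, and none passed after adjustment.

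Among the subunits of eIF2, which carries the initiator tRNA, the beta subunit gene Eif2s2 was the factor with the smallest p. It was at 103 to 171 normalised molecules with DMSO, median 135, and at 76.1 to 109 with picrotoxin, median 98.6. All 6 picrotoxin libraries lay below the DMSO mean, and DMSO 2 was the only DMSO library within the picrotoxin range. The mean was 135 ± 25.2 with DMSO and 95.5 ± 13.8 with picrotoxin (SD, n = 6 each), a log2 fold change of −0.49 ± 0.12 (SE) with an adjusted p of 0.138 in edgeR. The gene, on the minus strand at chr2:154871410-154892935 of GRCm38, shares 27.8% of the 50-base words of its transcript with the pseudogene Gm9892, so reads of the 2 could have been exchanged. The unadjusted p stayed under 0.05 in all 24 alternatives, and the adjusted p over them ranged from 0.00476 to 0.787. The log2 fold change was −0.37 without DMSO 3 and DMSO 5 and −0.36 with the matrix marker level as a covariate.

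The alpha subunit gene Eif2s1, whose product is the target of the stress kinases, went the other way. It was at 22.9 to 35.2 normalised molecules with DMSO, median 29.5, and at 28.8 to 39.6 with picrotoxin, median 37.0. The groups overlapped, although all 6 picrotoxin libraries were above the DMSO mean. The log2 fold change was 0.33 ± 0.15 (SE) with an adjusted p of 0.620 in edgeR, and the unadjusted p was under 0.05 in 9 of 24 alternatives. The call was lost without DMSO 1, 3 or 4 or without picrotoxin 1, 2, 3, 4 or 6, with log2 fold changes of 0.27 to 0.40 over all libraries left out in turn.

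Set against each other within a library, there were 3.35 to 7.26 molecules of Eif2s2 for each of Eif2s1 with DMSO, median 4.56, and 1.92 to 3.68 with picrotoxin, median 2.69. This ratio was chosen after the values of both genes were seen and was given no test. The ranges overlapped between 3.35 and 3.68 (the plot of both subunits per library).

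**Figure D2:**
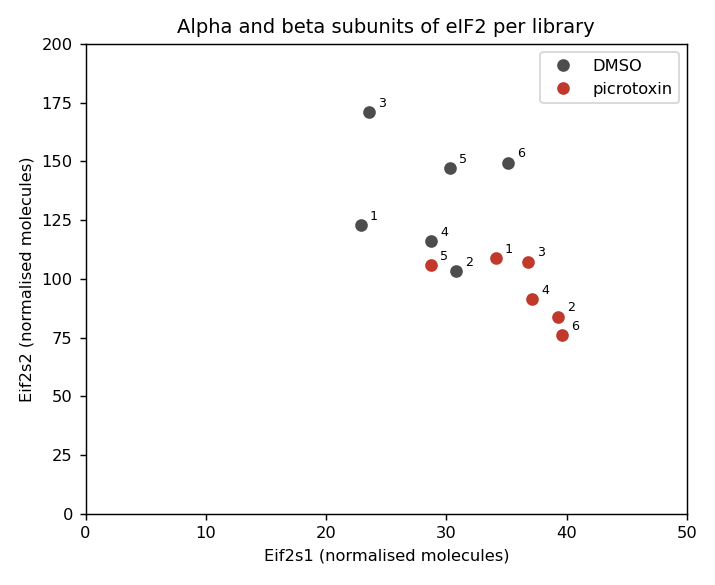
Normalised molecules of Eif2s1 (horizontal axis) and Eif2s2 (vertical axis) in each of the 12 libraries, with the replicate number beside each point. DMSO libraries reach 171 for Eif2s2 and picrotoxin libraries 39.6 for Eif2s1, and the 2 groups meet near 103 to 109 for Eif2s2.

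The gamma subunit is encoded on both sex chromosomes. Eif2s3x was at 13.9 to 20.8 normalised molecules with DMSO and 10.4 to 21.2 with picrotoxin, and Eif2s3y at 4.91 to 14.6 and 8.03 to 13.8. Neither passed the threshold (adjusted p in edgeR of 0.967 and 0.956). Their coding sequences were identical at 86.33% of 1419 aligned bases and their 3′ untranslated regions shared no 50-base word, so the 2 could be counted apart, although 36.2% of Eif2s3x words are shared with pseudogenes. The last 60 coding bases of each are shown to let the copies be told apart, with the 7 differing bases in capitals, on the minus strand of chromosome X and the plus strand of chromosome Y, from GENCODE transcripts on GRCm38.
Eif2s3x: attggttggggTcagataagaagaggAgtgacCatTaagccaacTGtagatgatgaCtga
Eif2s3y: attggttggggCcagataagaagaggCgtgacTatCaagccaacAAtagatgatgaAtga

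The 5 subunits of eIF2B, the exchange factor of eIF2, were low, with means of 1.83 to 7.67 molecules. None of the 5 passed the threshold, and their log2 fold changes were between −0.47 (Eif2b4) and 0.34 (Eif2b5). At this depth changes of that size could not be told from none.

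The largest complex, eIF3, holds the small subunit, mRNA and other factors together. Of its 14 genes, 3 were lower with picrotoxin and none higher at the unadjusted threshold, beside 4.05% and 3.67% of all genes. The median log2 fold change of the 14 was −0.08, and whether they differ from all genes was not tested. Eif3j1 and Eif3j2 have the same coding sequence over all 786 bases and their counts differed by at most 2 molecules, with equal counts in 7 of 12 libraries, so they hold 1 measurement although both stand in the counts of 57 and 14. Counted once, there were 13 eIF3 genes and 56 factors, 36 (64.3%) of them below 0, with a median log2 fold change of −0.07. Their log2 fold changes were 0.04 and 0.03.

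Eif3h, a subunit with a metalloprotease-like fold, was at 47.3 to 83.0 normalised molecules with DMSO, median 53.3, and at 31.5 to 46.2 with picrotoxin, median 44.0. The groups did not overlap, although DMSO 3 stood far above the other DMSO libraries. The log2 fold change was −0.47 ± 0.15 (SE) with an adjusted p of 0.309 in edgeR, and −0.36 without DMSO 3 and DMSO 5. The unadjusted p was under 0.05 in all 24 alternatives. The gene lies on the minus strand at chr15:51786558-51865523, and 26.2% of its words are shared with 2 pseudogenes.

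Eif3d, a subunit that can bind the mRNA cap, was at 20.8 to 36.9 normalised molecules with DMSO, median 26.5, and at 15.7 to 25.3 with picrotoxin, median 19.1. The groups overlapped. The log2 fold change was −0.44 ± 0.18 (SE), adjusted p = 0.524 in edgeR. Without DMSO 3 alone it was −0.35 and without DMSO 3 and DMSO 5 it was −0.31, and neither passed the unadjusted threshold, nor did the fit with the matrix marker level as a covariate. Eif3d shares no 50-base word with another gene.

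Eif3k, a small peripheral subunit that pairs with eIF3l, was at 38.9 to 70.8 normalised molecules with DMSO, median 46.0, and at 31.9 to 47.3 with picrotoxin, median 37.7. The groups overlapped. The log2 fold change was −0.34 ± 0.15 (SE), adjusted p = 0.612 in edgeR. In replicates 3 to 6 alone it was −0.07, and without DMSO 1 alone it was −0.22, and neither passed the unadjusted threshold. The call was also lost without DMSO 2, picrotoxin 2 or picrotoxin 5, in DESeq2 and in limma-voom, 7 of 24 alternatives in all. Its partner Eif3l had a log2 fold change of 0.09 ± 0.17 (SE).

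Eif3a, which encodes the largest subunit, had the most molecules of the complex. It was at 97.4 to 122 normalised molecules with DMSO and 90.3 to 135 with picrotoxin. The log2 fold change was −0.04 ± 0.11 (SE) with an adjusted p of 0.969 in edgeR. Eif3e, with a log2 fold change of −0.11, turned to 0.09 without DMSO 3 and DMSO 5. The other genes of the complex had log2 fold changes between −0.15 (Eif3m) and 0.09 (Eif3l).

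**Figure D3:**
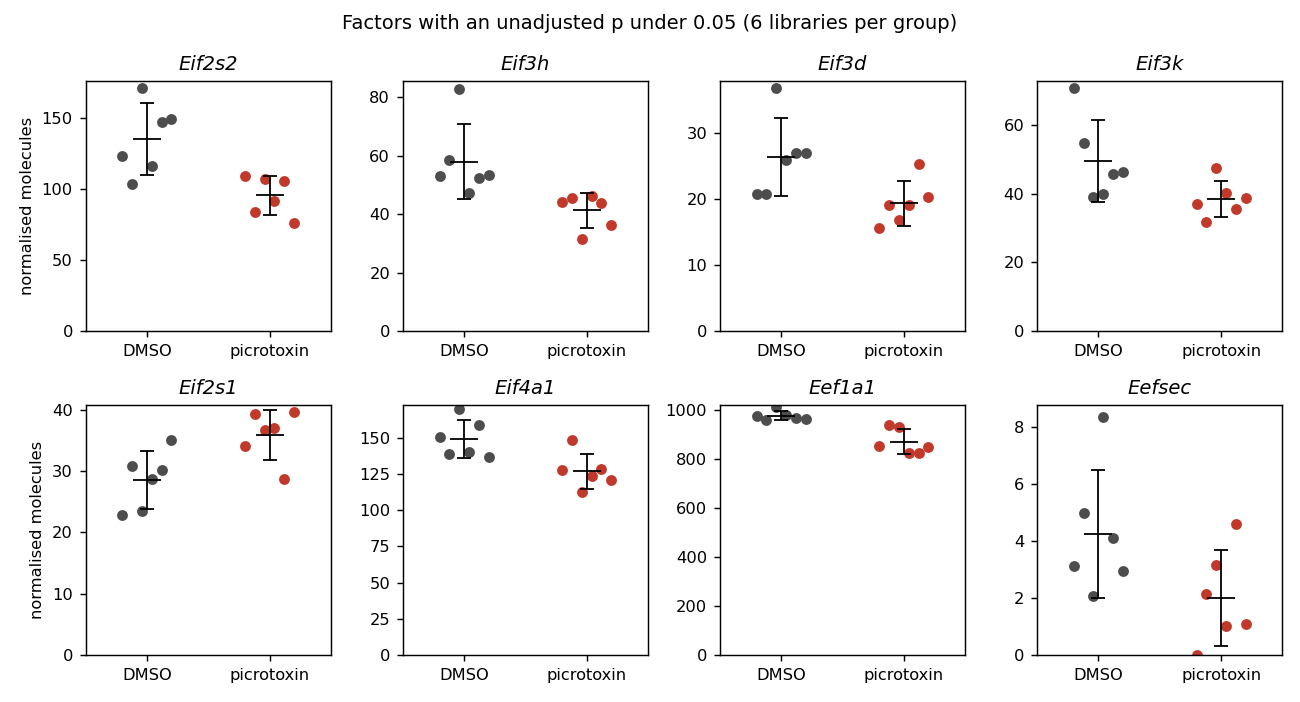
Normalised molecules per library (points), mean (bar) and SD (whiskers) for the 8 factors with an unadjusted p under 0.05, 6 libraries per group, on axes that start at 0. Eif3h and Eef1a1 do not overlap between groups, and the other 6 do.

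Of the 12 genes with an Eif4 symbol, listed together under cap binding and helicase, 1 was lower, beside 4.05% of all genes. Eif4a1, the RNA helicase, was at 137 to 170 normalised molecules with DMSO, median 145, and at 113 to 149 with picrotoxin, median 126. The groups overlapped. The log2 fold change was −0.22 ± 0.10 (SE), adjusted p = 0.620 in edgeR. Without DMSO 3 and DMSO 5 it was −0.15 and no longer passed the unadjusted threshold. The call was also lost without DMSO 1, 3 or 5 or without picrotoxin 3, 4, 5 or 6, with log2 fold changes of −0.27 to −0.18 over all libraries left out in turn. Of its words, 65.3% are shared with 8 pseudogenes, so its count is uncertain.

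The cap-binding protein gene Eif4e was at 19.8 to 43.6 normalised molecules with DMSO and 23.0 to 32.1 with picrotoxin, a log2 fold change of −0.16 ± 0.17 (SE). The scaffold gene Eif4g1 had a log2 fold change of −0.06 ± 0.15 (SE), and Eif4g2, its relative that lacks the cap-binding partner site, −0.13 ± 0.11 (SE). None of the 3 passed the threshold, and across the 12 genes log2 fold changes were between −0.25 (Eif4a2) and 0.26 (Eif4e3).

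None of the 6 factors listed under scanning and start codon passed the threshold. Eif1, which guards start codon fidelity, was at 144 to 186 normalised molecules with DMSO and 138 to 160 with picrotoxin, a log2 fold change of −0.11 ± 0.10 (SE), and its paralogue Eif1b had one of 0.45 ± 0.23 (SE) with an adjusted p of 0.678 in edgeR. Eif5, the GTPase activator of eIF2, had one of 0.16 ± 0.13 (SE). Eif6, which keeps the large subunit from joining too early, had one of −0.35 ± 0.18 (SE) with an adjusted p of 0.678 in edgeR. The unadjusted p of Eif6 was under 0.05 in 8 of 24 alternatives. Eif5b, which joins the subunits, had a log2 fold change of 0.05 ± 0.13 (SE). Eif5a, which helps ribosomes through stalling stretches, had one of −0.07 ± 0.10 (SE).

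Elongation was led by Eef1a1, the carrier of aminoacyl-tRNA and the factor with the most molecules. Its mean over the 2 groups was 925 normalised molecules, against 220 for Eef2 and 204 for Eif5a. Eef1a1 was at 962 to 1013 normalised molecules with DMSO, median 974, and at 825 to 941 with picrotoxin, median 854. The groups did not overlap. The mean was 978 ± 18.5 with DMSO and 871 ± 51.9 with picrotoxin (SD, n = 6 each), a log2 fold change of −0.15 ± 0.07 (SE) with an adjusted p of 0.627 in edgeR and 0.992 in DESeq2. The unadjusted p was under 0.05 in 15 of 24 alternatives. The call was lost without DMSO 1, 2 or 6 or without picrotoxin 4, 5 or 6, with log2 fold changes of −0.18 to −0.14 over all libraries left out in turn. Of its words, 59.2% are shared with other genes, 18 of them pseudogenes.

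None of the 3 subunit genes of eEF1B, the exchange factor of eEF1A, passed the threshold in the main edgeR fit. Eef1g, the gamma subunit, was at 127 to 169 normalised molecules with DMSO and 109 to 152 with picrotoxin. Its log2 fold change was −0.21 ± 0.11 (SE) with an adjusted p of 0.656 in edgeR. The unadjusted p of Eef1g was under 0.05 in 12 of 24 alternatives, and 64.3% of its words are shared with pseudogenes. Eef1b2, the beta subunit, had a log2 fold change of 0.12 ± 0.11 (SE), and Eef1d, the delta subunit, −0.16 ± 0.17 (SE), which turned to 0.03 without DMSO 3 and DMSO 5. Whether the 3 differ from each other was not tested.

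Eef2, the translocase, was at 206 to 237 normalised molecules with DMSO and 204 to 229 with picrotoxin, with a log2 fold change of −0.06 ± 0.09 (SE) and an adjusted p of 0.938 in edgeR. Its 95% interval, −0.24 to 0.12, is the second narrowest after that of Eef1a1. Eefsec, which inserts selenocysteine, had 2 to 9 molecules per library with DMSO and 0 to 4 with picrotoxin, with overlapping groups. Those few molecules gave a log2 fold change of −1.09 ± 0.53 (SE) and an adjusted p of 0.640 in edgeR. The call was lost in 10 of 23 alternatives, which were DESeq2, the replicate block, replicates 3 to 6 alone (−0.80) and the fits without DMSO 2, 4 or 5 or without picrotoxin 1, 2, 4 or 6. Eef1e1, a part of the multi-synthetase complex named for its likeness to elongation factors, had one of 0.41 ± 0.29 (SE), and the 3 methyltransferase genes Eef1akmt1, Eef1akmt2 and Eef1akmt4, at means of 3.33 to 5.75 molecules, had ones of −0.23 to 0.16 and did not pass.

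Summed over the 57 factors, 1.51% to 1.64% of molecules with DMSO (mean 1.57% ± 0.0620, SD) and 1.36% to 1.46% with picrotoxin (mean 1.40% ± 0.0377, SD, n = 6 each) came from these genes, and the ranges did not overlap. With Rn45s left out of the total the shares were 1.63% to 1.90% and 1.54% to 1.68%, which overlap (the plot of summed shares). Without Eef1a1, which gave 24.5% to 28.4% of the factors' molecules in a library, and without Rn45s, they were 1.17% to 1.40% and 1.13% to 1.24%. The shares are given with no test.

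**Figure D4:**
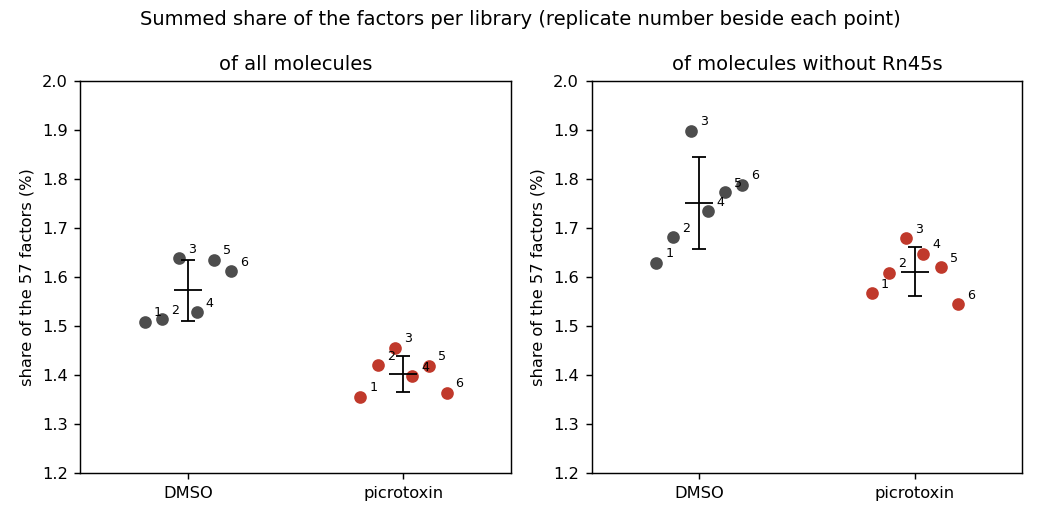
Summed share of the 57 factors in each library (points, with replicate numbers), mean (bar) and SD (whiskers), as a percent of all molecules on the left and of molecules without Rn45s on the right, on axes that do not start at 0. On the left the DMSO libraries lie at 1.51% or above and the picrotoxin libraries at 1.46% or below, and on the right the groups overlap between 1.63% and 1.68%.

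The regulators and partners of these factors were described from a list of 47 genes, 43 of which could be tested. Of the 43, 2 were higher and 2 lower with picrotoxin at an unadjusted p under 0.05 (4.65% each way), near the 3.67% and 4.05% of all genes. The median log2 fold change was −0.05. The count was 7 without DMSO 1, 2 without DMSO 5, 1 without DMSO 6 and 1 without picrotoxin 4. Of all genes, 8.17%, 6.39%, 6.58% and 7.30% passed in these fits in turn. Tsc1, a brake on the growth kinase mTORC1, was at 0.818 to 5.57 normalised molecules with DMSO and 4.21 to 10.03 with picrotoxin, a log2 fold change of 1.21 ± 0.41 (SE), and Mknk2, a kinase of eIF4E, had one of 0.37 ± 0.17 (SE). Denr, a reinitiation factor, had one of −0.52 ± 0.22 (SE), and Abce1, which splits ribosomes after termination, −0.46 ± 0.21 (SE). Their adjusted p in edgeR was 0.401, 0.595, 0.567 and 0.620. The unadjusted p of Tsc1 was under 0.05 in all 23 alternatives, that of Denr in 19 of 24, and those of Mknk2 and Abce1 in 17 of 24 each.

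None of the 8 kinases and binding proteins set aside by the symbol rule passed the unadjusted threshold. Eif2ak3 (PERK) had a log2 fold change of 0.99 ± 0.54 (SE) with an adjusted p of 0.724 in edgeR, on 3.25 molecules per library, and it passed the unadjusted threshold in 5 of 23 alternatives, which were limma-voom, replicates 3 to 6 alone (1.82) and the fits without DMSO 1, DMSO 4 or picrotoxin 1 (1.15 to 1.25). Eif2ak4 (GCN2) had a log2 fold change of −0.05 ± 0.44 (SE). Eif4ebp1, the repressor of eIF4E, had one of −0.09 ± 0.20 (SE), and Pabpc1, the poly(A)-binding protein, −0.12 ± 0.08 (SE).

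Beside the factors, the 81 cytosolic ribosomal protein genes tested had a median log2 fold change of −0.10, with 70 (86.4%) below 0, 12 (14.8%) lower and none higher at the unadjusted threshold, beside 50.7%, 4.05% and 3.67% of all genes. The 20 cytosolic aminoacyl-tRNA synthetases had a median of −0.12, with 80.0% below 0 and 2 lower, and the 9 mitochondrial translation factors one of 0.26, with 33.3% below 0 and 1 higher. The last 2 lists are too short for their 2 and 1 calls to be read against those shares. Differences between these lists were not tested.

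Promoter sequence was looked at for what the factors share. RefSeq held the 250 bases before the start of 45 of the 57 factors and of 7578 genes tested. The E-box CACGTG, searched on both strands, was in 11 of the 45 (24.4%) and in 10.6% of all tested genes, and the ETS motif CCGGAAG in 11 of the 45 (24.4%) and 17.9%. The CRE TGACGTCA was in none of the 45 and in 3.19%. A match is a description of these letters and not a site in use. Stretches of 60 bases on the minus strand are shown for the 3 factors with an unadjusted p under 0.05 that held a motif, with the match in capitals, from GRCm38.p6 at chr15:77970862-77970921 (Eif3d, ETS motif as its reverse complement), chr7:28981900-28981959 (Eif3k, E-box) and chr11:69672580-69672639 (Eif4a1, E-box).
Eif3d: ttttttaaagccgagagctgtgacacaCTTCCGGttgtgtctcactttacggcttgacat
Eif3k: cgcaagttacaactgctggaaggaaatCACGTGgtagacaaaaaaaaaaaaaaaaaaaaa
Eif4a1: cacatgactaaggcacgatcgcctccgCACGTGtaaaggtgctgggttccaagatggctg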

How the data were processed

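RNA from 100 sorted cells per library was copied with a barcoded oligo-dT primer. The deposited values are raw counts, 1 whole number of molecular barcodes for each gene and library, not normalised. The submitters' processing notes name STAR and the build mm10. Handling of multi-mapped reads and strand was not given in the sources used here, so genes sharing sequence or overlapping are uncertain.

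Genes with a mean normalised count above 1 (9580) were tested with edgeR 4.0.16 (quasi-likelihood, TMM, Benjamini-Hochberg adjustment over all tested genes, R 4.3.3). DESeq2 1.42.0 and limma 3.58.1 (voom) were alternatives. Normalised molecules were counts divided by DESeq2 size factors. The 95% intervals come from the edgeR fit. The 30 within-group library pairs differed by more than sampling noise (chi-square per degree of freedom 1.23 to 3.15), so none was counted as a copy. This cannot tell whether libraries shared a mouse, since separate libraries of the same mouse could differ as well.

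Named genes were factors with an unadjusted p under 0.05, the most abundant factor of each role, a list of core subunits, up to 3 regulators per direction and 6 regulators listed by name. Other factors (Eif1b, Eif3l, both Eif3j genes, Eef1akmt genes and those at the ends of ranges) were chosen after their values were seen. The members, lists and rules were chosen with earlier results of these data known. Members were matched to GENCODE M21 on GRCm38 (57 of 57). A count of 0 allows up to 0.00149% (3 molecules) in the smallest library, for counting error only. The tests were tested on simulated data. Changes in genes with means under 10 molecules were often missed there, and the recovery required of edgeR was then set for means of at least 10 only. Since 13 factors had means under 10, not passing says little of them.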

Additional observations from a re-analysis of the deposited data

Results flagged for a closer look

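Each gene taken by the naming rule was examined in each group of 6 libraries for a library far from the rest by Dixon's test, 76 tests in all, of which chance would flag about 1 in 20, or 3.8. There were 2. Eif3h in DMSO 3 was at 83.0 normalised molecules, the nearest other DMSO library at 58.6 and the lowest at 47.3. Eif4ebp1 in DMSO 2 was at 26.8 normalised molecules, the nearest at 34.3 and the highest at 38.5.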

How the results depend on the processing

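The number of factors with an unadjusted p under 0.05 (8) was 5 in replicates 3 to 6 alone and 5 with DMSO 3 and DMSO 5 left out (added after seeing the data), and 5 to 7 with each library left out. Of all genes, 9.44% passed in replicates 3 to 6 alone and 5.37% with DMSO 3 and DMSO 5 left out. With each library left out it was 6.39% to 8.62%. The number with an adjusted p under 0.05 (0) was 1, on the lower side, with no filter beyond 1 count, with the replicate block, with a term for replicate numbers 1 and 2 against 3 to 6 and in replicates 3 to 6 alone, and 0 to 1 with each library left out (1 without DMSO 2). Over all genes tested this number was 5 in the main fit. It was 81 (of 13815), 43, 27 and 51 in the named fits in turn, and 23 without DMSO 2. The count by the rule of the study (6) was 3 with the replicate block, 3 with DMSO 3 and DMSO 5 left out and 3 to 6 with each library left out. No share of all genes under this rule is given for these fits, so the lower counts cannot be read as particular to the factors. The count of regulators (4) was 1 in DESeq2, 8 in limma-voom, 8 in replicates 3 to 6 alone and 1 to 7 with each library left out. Of all genes, 3.82% passed in DESeq2, 7.76% in limma-voom and 9.44% in replicates 3 to 6 alone. The cause of these changes was not tested. The median log2 fold change of the factors stayed below 0 in every alternative run, from −0.13 to −0.07. The median over all genes tested moved as well, from −0.06 with library totals alone to 0.0028 in limma-voom. Same-numbered libraries of the 2 groups had correlations of −0.00498 to 0.126 over 6 pairs, 1 above 0.1. Their mean was 0.0534, beside −0.0108 for other pairs, and 2 of 6 correlated best with their own number. Numbers were not taken as pairs, and the block stands only as an alternative. It had 8 factors at an unadjusted p under 0.05 (7.75% of all genes), Eef1g in place of Eefsec.

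Log2 fold changes of genes that did not pass changed sign as follows. They were 0.078 (Eif3a), 0.041 (Eif4g1) and 0.031 (Eef2k) in replicates 3 to 6 alone, and −0.00218 (Eif5b) with library totals alone. With the matrix marker level as covariate they were 0.073 (Eef1d), −0.066 (Eif2s3y), 0.00620 (Eif3e), 0.00395 (Eif4g1), 0.33 (Eif2ak4) and 0.60 (Eef2k). With DMSO 3 and DMSO 5 left out they were 0.026 (Eef1d), 0.094 (Eif3e), 0.48 (Eif2ak4) and 0.33 (Eef2k). Eif2ak4 was at 0.069 in limma-voom and Eef2k at 0.022 with the term for replicate numbers. With each library left out in turn, the ranges that crossed 0 were −0.00572 to 0.11 (Eif5b), −0.17 to 0.017 (Eif2s3x), −0.029 to 0.26 (Eif2s3y), −0.19 to 0.000679 (Eif3e), −0.21 to 0.00123 (Eif4g1), −0.33 to 0.053 (Eif4ebp1), −0.27 to 0.27 (Eif2ak4) and −0.71 to 0.22 (Eef2k). Means under 5 molecules for Eif2ak4 and Eef2k limit these values.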
